A study of Callithrix jacchus with 6 samples.

Results

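The calcium-activated potassium channels described here are KCNN1, KCNN2 and KCNN3, which encode the small-conductance channels SK1, SK2 and SK3, and KCNMA1, which encodes the pore of the large-conductance BK channel. They were chosen by symbol, and all 4 were found among the 29320 genes of the files (ENSCJAG00000014026, ENSCJAG00000016659, ENSCJAG00000009390 and ENSCJAG00000001073). KCNN3 in astrocytes and oligodendrocyte precursor cells (OPCs) was the starting point because earlier results of these data showed it lower under sevoflurane there. The difference between the groups in those 2 cell classes is therefore a description, with no test, for every one of these genes.

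The data came from single-cell suspensions of the hippocampus of aged common marmosets (Callithrix jacchus). One group of 3 libraries followed 6 h of sevoflurane, an inhaled anaesthetic, and the other group of 3 followed 6 h of oxygen as the control. The tissue of both groups was digested with collagenase and frozen as a cell suspension before sequencing with 10x Genomics chemistry. The labels give no sex and no exact age, and they do not say that the libraries of a group came from separate animals, so p-values measure the spread between these samples, which may be technical. The title names FKBP5 in microglia as the subject of the study. It says nothing of potassium channels.

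Both kinds of channel open when calcium rises inside the cell, let potassium out and pull the membrane towards rest. SK channels sense calcium through calmodulin bound to the channel and do not depend on voltage, and in neurons they carry part of the afterhyperpolarisation that spaces action potentials. In hippocampal pyramidal cells SK2 also lies in dendritic spines, where it limits the response to glutamate. BK channels need calcium and depolarisation together, sit close to voltage-gated calcium channels, and shorten the action potential and restrain transmitter release.

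The libraries held 7103 to 8577 cell barcodes and 41164947 to 47886816 unique molecular identifiers (UMIs), and pairs of libraries shared at most 0.328% of the barcodes of the smaller one. After doublets were removed, 44348 cells fell into 34 clusters, which were named only where their marker genes allowed it, and 2885 cells stayed unnamed. Levels are UMIs of a gene per 1000000 UMIs of the same cells in the same library (CPM), and errors of levels are standard deviations over libraries. Sevoflurane replicate 3, the third library of its group, differed from the rest in its kinds of neuron. It held 0, 6 and 1 cells of glutamatergic neuron clusters 7, 5 and 11, and 1136 and 1141 cells of clusters 18 and 22, where the other libraries held between 0 and 221. It also held 1056 of the 1154 cells of oligodendrocyte cluster 2. Values without this library are given beside the results of the glutamatergic and oligodendrocyte-like classes and wherever else it moved a value most.

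KCNN3 was lower in the sevoflurane libraries in both classes from which it was chosen. In astrocyte-like cells (4898 cells of 1 cluster, led by SLC1A2 and SLC1A3, the glutamate transporters of astrocytes) KCNN3 had 20.04, 13.95 and 18.1 CPM in the sevoflurane libraries, against 40.7, 42.2 and 34.5 CPM in the oxygen libraries. Every sevoflurane library lay below every oxygen library, and the log2 fold change was -1.15 ± 0.21 (edgeR estimate and standard error). These values rest on 37, 19 and 31 UMIs under sevoflurane and 82, 119 and 127 UMIs under oxygen. Leaving out each library in turn gave log2 fold changes between -1.27 and -1.01, and the value without the third sevoflurane library was -1.20.

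In OPC-like cells (1959 cells of 1 cluster, led by VCAN and PDGFRA, a growth factor receptor that marks OPCs) KCNN3 had 8.07, 16.4 and 29.6 CPM in the sevoflurane libraries, against 61.6, 56.1 and 52.5 CPM in the oxygen libraries. The groups did not overlap, the sevoflurane libraries spread more widely than the oxygen libraries, and the log2 fold change was -1.75 ± 0.34. The UMIs behind these values were few, 8, 14 and 20 under sevoflurane and 62, 55 and 55 under oxygen. Without the first sevoflurane library, which was lowest, the log2 fold change was -1.35, and without the third it was -2.27.

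**Figure D1:**
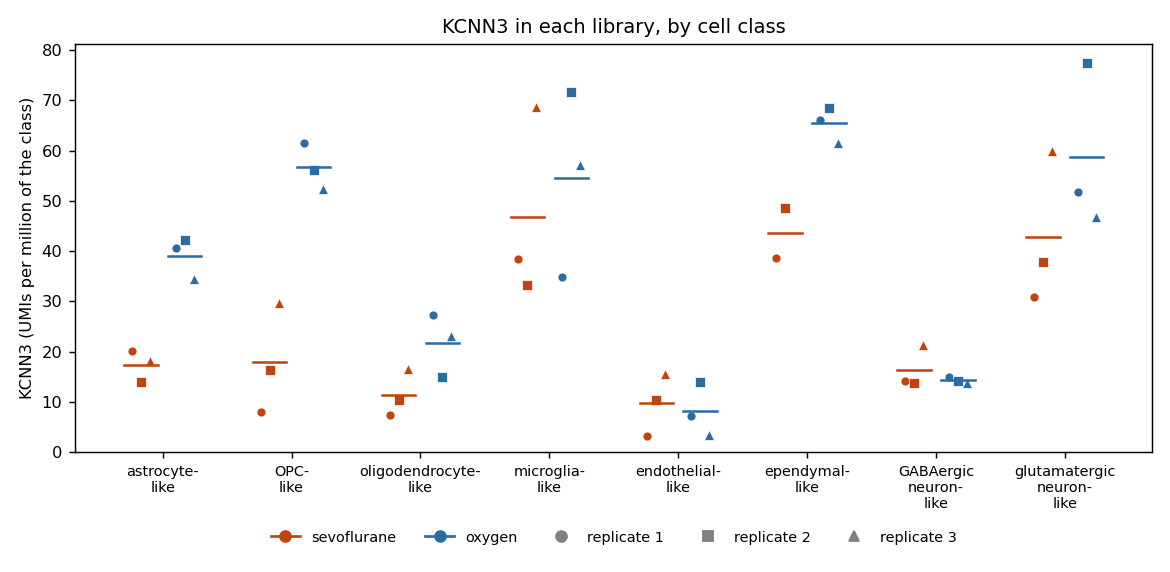
KCNN3 in CPM in 8 cell classes, with 1 point per library, sevoflurane left of oxygen in each pair, and a bar at the mean of each group. In astrocyte-like and OPC-like cells the sevoflurane points (at most 20.04 and 29.6 CPM) all lie below the oxygen points (at least 34.5 and 52.5 CPM), while in microglia-like and GABAergic neuron-like cells the groups overlap.

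The other SK genes were also below or within the oxygen range in these glia. KCNN2 in astrocyte-like cells had 63.4, 30.8 and 42.6 CPM under sevoflurane, against 77.9, 95.1 and 72.2 CPM under oxygen, with no overlap and a log2 fold change of -0.83 ± 0.25. In OPC-like cells KCNN2 had 110.9, 88.9 and 106.7 CPM under sevoflurane, against 116.3, 122.4 and 113.5 CPM under oxygen. Those groups did not overlap either, but the gap was narrow and the log2 fold change was -0.23 ± 0.15. KCNN1 was near 10 CPM in both classes and overlapped between the groups.

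KCNMA1 did not separate the groups in either class. In OPC-like cells it averaged 620.2 ± 101.6 CPM under sevoflurane and 621.0 ± 56.0 CPM under oxygen (SD, n = 3 each). In astrocyte-like cells it had 133.8, 63.9 and 333.1 CPM under sevoflurane, against 228.2, 151.8 and 137.3 CPM under oxygen, so that the sevoflurane libraries held both the lowest and the highest value. The log2 fold change there was 0.07 ± 0.49, and without the third sevoflurane library it was -0.80. Of the 4 genes, 2 (KCNN2 and KCNN3) lay below oxygen with no overlap in each class, where 6.48% of the genes tested did so in astrocyte-like cells and 4.8% in OPC-like cells. Because the genes were chosen on this contrast, nothing is read from that comparison.

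The share of cells in which KCNN3 was seen followed the same direction at a fixed depth. With every cell thinned to 1000 UMIs, KCNN3 was detected in 2.22 ± 0.75% of astrocyte-like cells under sevoflurane and 4.00 ± 0.65% under oxygen (SD over 3 libraries each), and without thinning in 4.43 ± 1.32% and 9.10 ± 0.71%. In OPC-like cells the thinned share was 1.94 ± 2.32% under sevoflurane and 5.65 ± 0.91% under oxygen. The third sevoflurane library (4.62%) equalled the lowest oxygen library (4.62%) there, so the thinned shares of OPC-like cells met where the levels did not. In the LHX6 interneurons of cluster 15, KCNN3 was detected in 0.136 ± 0.235% and 0.225 ± 0.390% of cells under sevoflurane and oxygen at the same thinned depth. That cluster had the lowest median KCNN3 (4.00 CPM) of the neuron clusters compared. Those interneurons were deep cells (library medians of 6116 to 10422 UMIs before thinning, against 2301 to 3040.5 for astrocyte-like cells). Their share is therefore no measure of free RNA in the glia, which was not tested.

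Markers of other cells were read in the same sums of counts. In astrocyte-like cells the 4 pan-neuronal markers summed to 476.7 to 727.3 CPM under sevoflurane and 562.9 to 742.7 CPM under oxygen, the 6 glutamatergic markers to 205.4 to 248.0 and 176.3 to 247.6 CPM, and the 5 ependymal markers to 161.0 to 262.1 and 189.7 to 194.4 CPM. In OPC-like cells the pan-neuronal sums were 500.9 to 772.5 CPM under sevoflurane and 663.1 to 802.2 CPM under oxygen. The 8 GABAergic markers summed to 67.7 to 110.8 CPM under sevoflurane and 106.1 to 124.0 CPM under oxygen in astrocyte-like cells. In OPC-like cells they summed to 287.6 to 341.9 CPM under sevoflurane and 266.3 to 313.0 CPM under oxygen. All these ranges overlapped. Of the GABAergic markers only SLC32A1 was at 0 in both classes. Of 16 marker lists, 4 did not overlap between the groups in astrocyte-like cells and 3 in OPC-like cells. In astrocyte-like cells the 6 endothelial markers were lower under sevoflurane (5.14 to 9.34 CPM) than under oxygen (11.4 to 20.1 CPM), and so were the 5 border macrophage markers (6.42 to 10.3 CPM under sevoflurane, 11.9 to 12.4 CPM under oxygen), among which CD163 was at 0. The 2 erythrocyte markers (30.9 to 43.3 CPM under sevoflurane, 13.8 to 26.3 CPM under oxygen) and the 4 T cell markers (at least 3.79 CPM under sevoflurane, at most 2.99 CPM under oxygen, with CD3D at 0) were higher. In OPC-like cells the border macrophage markers (4.68 to 7.41 CPM under sevoflurane, 9.94 to 15.3 CPM under oxygen, with CD163, MRC1, LYVE1 and F13A1 at 0) and the 5 fibroblast markers (0 to 4.45 CPM under sevoflurane, 10.2 to 14.9 CPM under oxygen, with COL3A1 at 0) were lower. The 6 OPC markers themselves were higher there under sevoflurane (2662 to 3482 CPM) than under oxygen (2405 to 2551 CPM). The part of any of these lists in the KCNN3 values was not tested.

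KCNN3 was detected in the summed counts of neurons and of most kinds of glia. Its median over the libraries of both groups was highest in ependymal-like cells (61.6 CPM), the ciliated cells that line the ventricles, followed by glutamatergic neuron-like cells (49.2 CPM), microglia-like cells (47.9 CPM), OPC-like cells (41.1 CPM) and astrocyte-like cells (27.3 CPM). Oligodendrocyte-like (15.8 CPM), GABAergic neuron-like (14.2 CPM) and endothelial-like cells (8.79 CPM) were lower. Neighbours in this order overlapped in every case. The order also depended on the group. OPC-like and astrocyte-like cells were chosen because KCNN3 was lower there under sevoflurane, so their place in the order by group is a description only. Under sevoflurane KCNN3 averaged 46.8 CPM in microglia-like, 43.6 CPM in ependymal-like, 42.8 CPM in glutamatergic neuron-like, 18.03 CPM in OPC-like and 17.4 CPM in astrocyte-like cells. Under oxygen OPC-like cells (56.7 CPM) stood among ependymal-like (65.4 CPM), glutamatergic neuron-like (58.6 CPM) and microglia-like cells (54.6 CPM), and astrocyte-like cells had 39.1 CPM. Astrocyte-like cells were above oligodendrocyte-like cells in 6 of 6 libraries, and GABAergic neuron-like above endothelial-like cells likewise, while glutamatergic neuron-like and microglia-like cells split 3 to 3. The pan-neuronal markers summed to 1479 to 1890 CPM in glutamatergic and 1322 to 1749 CPM in GABAergic neuron-like cells. They also summed to 660 to 1179 CPM in microglia-like, 627 to 1110 CPM in oligodendrocyte-like and 550 to 773 CPM in ependymal-like cells. The part of neuronal RNA in the KCNN3 levels of glia was not tested.

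Outside astrocyte-like and OPC-like cells the difference between sevoflurane and oxygen could be tested, and in no class or neuron cluster examined did one of these genes pass an adjusted p under 0.05 with edgeR's quasi-likelihood test. Over the 6 other classes and 5 glutamatergic clusters there were 40 such tests. Of these, 9 had an unadjusted p under 0.05, and DESeq2 called 1, KCNN3 in cluster 5. Among the 10049 genes tested with DESeq2 in that cluster, it called 46 higher and 105 lower. Of all genes tested, edgeR called 0.0171% in oligodendrocyte-like, 0.105% in microglia-like, 0% in endothelial-like and ependymal-like, 0.0915% in GABAergic neuron-like and 0.00578% in glutamatergic neuron-like cells, and 0.0548%, 0.539%, 0.00756%, 1.04% and 0.906% in clusters 5, 7, 11, 13 and 23. An unadjusted p under 0.05 was reached by 7.78%, 7.01%, 4.61%, 6.86%, 11.5% and 7.65% of the genes tested in those classes and by 12%, 13.1%, 12%, 13.1% and 15.7% in those clusters. All these comparisons use the same 6 libraries, so they are not independent of each other or of the values in astrocyte-like and OPC-like cells.

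In the remaining glia KCNN3 was lower or overlapping. In ependymal-like cells, of which the third sevoflurane library held only 10, so that it was left out, KCNN3 had 38.7 and 48.6 CPM under sevoflurane, against 66.2, 68.5 and 61.6 CPM under oxygen. The groups did not overlap, and the log2 fold change of -0.57 ± 0.29 did not pass (edgeR adjusted p = 0.727). With 2 libraries against 3, KCNN2 and KCNN3 were 2 of the 3 genes tested that lay below oxygen without overlap, where 14.1% of all genes tested did so. In oligodendrocyte-like cells KCNN3 had 7.42, 10.3 and 16.6 CPM under sevoflurane, against 27.3, 15.01 and 23.1 CPM under oxygen. The ranges overlapped and the log2 fold change was -0.93 ± 0.36 (edgeR adjusted p = 0.604), or -1.37 without the third sevoflurane library. The class joins clusters 0, 1 and 2, and most cells of that library lay in cluster 2. In cluster 1, which every library shared and which was not fitted alone, KCNN3 had 8.44, 8.42 and 12.7 CPM under sevoflurane, against 30.1, 16.1 and 22.5 CPM under oxygen, with no overlap. The third sevoflurane value of cluster 1 rests on 4 UMIs, and the share of all genes without overlap there was not computed. With cells thinned to 1000 UMIs, the shares of cluster 1 cells with KCNN3 overlapped, at 0.614 to 1.79% under sevoflurane and 1.425 to 2.99% under oxygen. Thinned to 2000 UMIs or unthinned, they did not overlap. In cluster 0, also held by every library and not fitted alone, the unthinned shares of cells with KCNN3 overlapped. They were 0.797 to 2.84% under sevoflurane and 2.65 to 5.64% under oxygen. Thinned to 1000 UMIs the shares of cluster 0 overlapped too, and thinned to 2000 UMIs they did not. Cluster 2 held at least 20 cells only in the third sevoflurane and the first oxygen libraries, and its KCNN3 is not given. Microglia-like cells had 38.5, 33.3 and 68.7 CPM under sevoflurane, against 34.8, 71.6 and 57.2 CPM under oxygen. Each group there held low and high libraries (log2 fold change -0.27 ± 0.35, edgeR adjusted p = 0.938).

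The glutamatergic neurons differed more among clusters than between the groups for most of these genes, and the third sevoflurane library was made of other clusters than the rest. For this reason KCNN3 in glutamatergic neuron-like cells as a whole (42.8 ± 15.1 CPM under sevoflurane, 58.6 ± 16.5 CPM under oxygen, SD, n = 3 each, log2 fold change -0.57 ± 0.30, edgeR adjusted p = 0.714, and -0.88 without that library) is also given by cluster. In cluster 5, with PIEZO2 and ABI3BP among its leading genes, KCNN3 had 33.6 and 38.5 CPM under sevoflurane, against 61.3, 77.5 and 61.7 CPM under oxygen. Both sevoflurane libraries lay well below all the oxygen libraries, with a log2 fold change of -0.98 ± 0.16 and an edgeR adjusted p of 0.0904. DESeq2 gave an adjusted p of 0.00186 for the same gene and cluster, and the values over edgeR fits that left out a library ran from 0.0505 to 0.269.

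In cluster 13, led by DPP10 and HS3ST4 and present in all 6 libraries, KCNN3 had 18.6, 29.8 and 35.1 CPM under sevoflurane, against 45.0, 85.2 and 45.7 CPM under oxygen. The groups did not overlap, and 6.64% of the genes tested in this cluster lay below oxygen in the same way. The log2 fold change was -1.11 ± 0.31 (edgeR adjusted p = 0.137), and -0.73 without the second oxygen library, which was the highest. Without the third sevoflurane library it was -1.33.

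KCNN3 in cluster 11, whose leading genes include CPNE4 and SHISA6, had 23.7 and 27.8 CPM under sevoflurane, against 30.3, 35.1 and 32.3 CPM under oxygen. Those groups did not overlap, as for 10.8% of the genes tested below oxygen, but the log2 fold change was small (-0.40 ± 0.15, edgeR adjusted p = 0.342). Cluster 7, in which PROX1, a transcription factor of dentate granule cells, was among the leading genes, had 29.7 and 41.5 CPM under sevoflurane, against 42.3, 58.2 and 36.5 CPM under oxygen, with overlap (log2 fold change -0.41 ± 0.22, edgeR adjusted p = 0.4998). Leaving out the first or second sevoflurane library or the second oxygen library moved that value of KCNN3 in cluster 7 to -0.22, -0.65 and -0.23.

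Cluster 23, which named CUX2, TSHZ2 and OTOF among its leading genes, held the highest median KCNN3 of the neuron clusters with at least 20 cells in 4 or more libraries. It had 83.8 and 57.1 CPM under sevoflurane, against 82.4, 130.6 and 78.0 CPM under oxygen, and the groups overlapped (log2 fold change -0.59 ± 0.32, edgeR adjusted p = 0.428). That log2 fold change was -1.03 without the first sevoflurane library, -0.35 without the second, and -0.28 without the second oxygen library. Only 62 and 38 cells stood behind the sevoflurane values, against 454, 515 and 354 cells under oxygen.

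The glutamatergic clusters 18, 19 and 22 were held by too few libraries to be tested, and their values differed in direction. KCNN3 in cluster 18 had 82.9 and 90.5 CPM in the first and the third sevoflurane libraries, against 53.3 CPM in the first oxygen library. In cluster 19 it had 25.6 and 32.9 CPM in the first and the second sevoflurane libraries, against 69.2 and 48.05 CPM in the first and the third oxygen libraries. Cluster 22 had KCNN3 at 35.8 and 30.5 CPM in the first and the third sevoflurane libraries, against 34.1 CPM in the first oxygen library. In these few libraries KCNN3 was higher under sevoflurane in cluster 18 and lower in cluster 19. In cluster 22 the oxygen value lay between the sevoflurane values. With only the first oxygen library in clusters 18 and 22, no direction of the groups can be read there.

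In GABAergic interneurons the groups were close in KCNN3, and its level differed between subtypes. The class had 14.2, 13.7 and 21.3 CPM under sevoflurane, against 15.02, 14.1 and 13.9 CPM under oxygen. The values were close except for the third sevoflurane library (log2 fold change 0.14 ± 0.21, edgeR adjusted p = 0.849, and -0.10 without that library). By cluster the medians were 32.4 CPM in cluster 17, led by FGF13 and TACR1, 16.03 CPM in cluster 21, with ADARB2, a marker of interneurons from the caudal ganglionic eminence, and only 7.40 and 4.00 CPM in clusters 16 and 15, with LHX6, a transcription factor of interneurons from the medial ganglionic eminence. Cluster 21 was above cluster 16 in 6 of 6 libraries, and cluster 16 above cluster 15 in 5 of 6. Cluster 17 was tested alone and KCNN3 there overlapped between the groups, with 30.9, 32.6 and 66.6 CPM under sevoflurane and 32.3, 35.1 and 30.5 CPM under oxygen (edgeR adjusted p = 0.742).

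**Figure D2:**
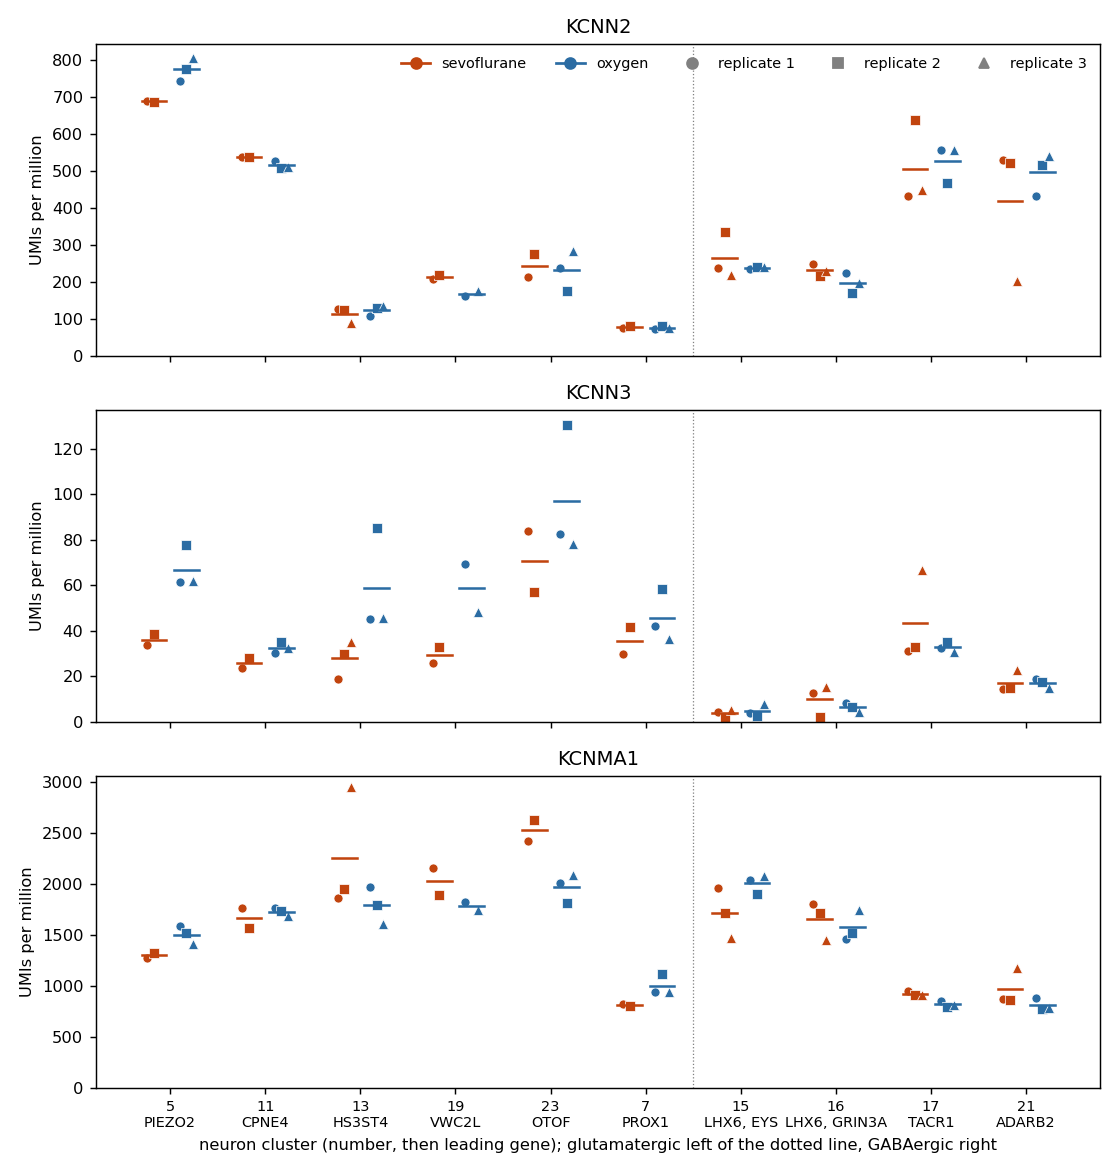
KCNN2, KCNN3 and KCNMA1 in CPM in 10 neuron clusters, each named by its number and a leading gene, with 1 point per library holding at least 20 of the cells, sevoflurane left of oxygen, and a bar at each group's mean. KCNN2 is highest in cluster 5 (median 742.9 CPM) and lowest in cluster 7 (75.8 CPM), and within interneurons KCNN2 and KCNN3 are lower in clusters 15 and 16 than in 17, where KCNMA1 runs the other way.

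KCNN2 was a neuronal gene in these data, with large differences between kinds of neuron. Its median was 359.9 CPM in GABAergic neuron-like cells and 301.1 CPM in glutamatergic neuron-like cells, and 138.7 CPM or less in every other class. Among glutamatergic clusters it was 742.9 CPM in cluster 5, 526.3 CPM in cluster 11, 237.4 CPM in cluster 23, 190.0 CPM in cluster 19, 124.8 CPM in cluster 13 and 75.8 CPM in cluster 7. Cluster 5 was above cluster 11 in 5 of 5 libraries and cluster 13 above cluster 7 in 5 of 5, and in both cases the ranges did not overlap. The PROX1 cluster was thus at about the level of the glia.

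Interneurons divided in the same way for KCNN2, with medians of 516.9 and 511.0 CPM in clusters 21 and 17 and 237.9 and 218.6 CPM in the LHX6 clusters 15 and 16. Cluster 17 was above cluster 15 in 6 of 6 libraries with no overlap of their ranges. The third sevoflurane library was the exception in cluster 21, where it had 202.7 CPM against 432.3 to 539.0 CPM in the other libraries.

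In clusters 5, 7 and 11 the groups were close in KCNN2. In cluster 5 it had 689.6 and 685.0 CPM under sevoflurane, against 742.9, 774.5 and 805.9 CPM under oxygen. The groups did not overlap, with a log2 fold change of -0.23 ± 0.10 that did not pass (edgeR adjusted p = 0.400). KCNN2, KCNN3 and KCNMA1 were 3 of the 4 genes below oxygen without overlap in cluster 5, where 11.4% of the genes tested were. In cluster 7 it averaged 77.8 ± 3.0 CPM under sevoflurane (SD, n = 2) and 75.7 ± 4.6 CPM under oxygen (SD, n = 3), and in cluster 11 it had 537.1 and 536.0 CPM, against 526.3, 508.0 and 509.7 CPM. The log2 fold changes in clusters 7 and 11, which also take account of library composition, were -0.04 ± 0.11 and 0.00 ± 0.10 (edgeR adjusted p = 0.921 and 0.997). In cluster 19, which was not tested, KCNN2 was higher in the sevoflurane libraries, with 205.9 and 216.8 CPM against 161.4 and 174.0 CPM under oxygen.

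The whole glutamatergic class gave a different picture of KCNN2, with 416.5, 224.1 and 82.1 CPM under sevoflurane, against 254.8, 475.1 and 347.3 CPM under oxygen. The libraries also differed in the neurons they held. Clusters 5 and 11 made up 10.0% and 6.59% of the first sevoflurane library, 0.0897% and 0.015% of the third sevoflurane library, and 11.2% and 6.59% of the second oxygen library. The part of this makeup in the class values was not tested. The log2 fold change of the class was -0.67 ± 0.57 (edgeR adjusted p = 0.823) and was -0.25 without that library. It was -1.36 without the first sevoflurane library and -0.40 without the second oxygen library.

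In oligodendrocyte-like cells KCNN2 had 106.0, 69.4 and 63.0 CPM under sevoflurane, against 113.7, 133.0 and 120.9 CPM under oxygen. The groups did not overlap, as 5.98% of the genes tested did below oxygen, and the log2 fold change was -0.65 ± 0.19 (edgeR adjusted p = 0.478), or -0.53 without the third sevoflurane library. Ependymal-like cells had KCNN2 at 112.1 and 123.3 CPM under sevoflurane, against 130.8, 167.1 and 158.0 CPM under oxygen (log2 fold change -0.37 ± 0.23, edgeR adjusted p = 0.772). In microglia-like and endothelial-like cells KCNN2 overlapped between the groups.

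KCNMA1 had the highest median of these genes in every class compared. Its median was 1503 CPM in glutamatergic neuron-like cells and 1301 CPM in GABAergic neuron-like cells, 614 CPM in OPC-like cells, 399 CPM in microglia-like cells, and 145 to 266 CPM in astrocyte-like, ependymal-like, oligodendrocyte-like and endothelial-like cells. In fibroblast-like cells (5 libraries) and in pericyte and smooth muscle-like cells (4 libraries), where BK channels are known to set vessel tone, the medians were 1053 and 852 CPM. OPC-like cells were the glia with the steadiest KCNMA1, from 543 to 735 CPM. Pan-neuronal markers were also counted in the glia, as given above, and the part of neuronal RNA in their KCNMA1 levels was not tested.

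**Figure D3:**
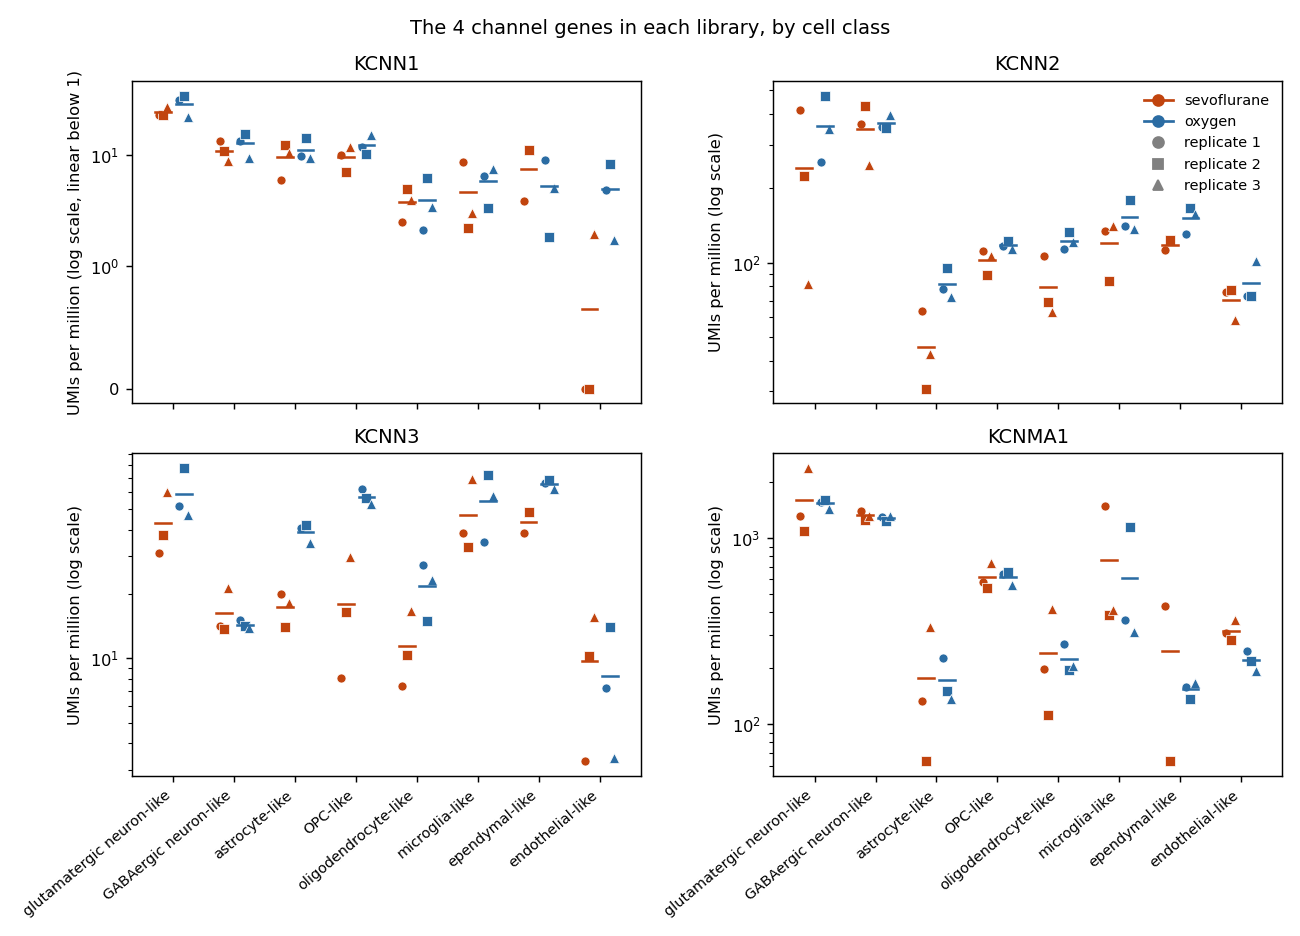
The 4 genes in CPM (log axes, linear below 1 for KCNN1) in 8 cell classes, with 1 point per library, sevoflurane left of oxygen, and a bar at each group's mean. KCNN1, KCNN2 and KCNMA1 are highest in neurons, while KCNN3 is as high in ependymal-like and microglia-like cells. In microglia-like cells KCNMA1 stands at 1489 CPM in 1 sevoflurane library and 1153 CPM in 1 oxygen library, with the other 4 between 315 and 412 CPM.

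Within interneurons KCNMA1 ran opposite to KCNN2 and KCNN3. The LHX6 clusters 15 and 16 had medians of 1924 and 1615 CPM, and clusters 17 and 21 had 878 and 862 CPM, with ranges of 1449 to 2079 CPM and 772 to 1177 CPM. In the glutamatergic clusters KCNMA1 ran from 938.5 CPM in cluster 7 to 2089 CPM in cluster 23, and cluster 5 was above cluster 7 in 5 of 5 libraries with no overlap.

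KCNMA1 lay above oxygen in some cells and below it in others, and none of these differences passed the test. Many other genes lay the same way, up to 25% of those tested (cluster 23), so nothing particular to KCNMA1 is read from the directions. In endothelial-like cells it had 310.9, 283.2 and 361.4 CPM under sevoflurane, against 247.7, 218.7 and 193.9 CPM under oxygen. The sevoflurane libraries were all higher, as 3.53% of the genes tested were, with a log2 fold change of 0.61 ± 0.23 (edgeR adjusted p = 1.00), between 0.52 and 0.71 when a library was left out. The 6 endothelial markers in these cells summed to 2768 to 2815 CPM under sevoflurane and 3228 to 4505 CPM under oxygen, and their part in the KCNMA1 values was not tested. The pericyte and smooth muscle markers summed to 87.5 to 248.0 CPM and 149.3 to 259.9 CPM and overlapped.

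In cluster 7 KCNMA1 had 817 and 799 CPM under sevoflurane, against 938.7, 1117 and 938.5 CPM under oxygen. The groups did not overlap, as for 9.83% of the genes tested below oxygen, and the log2 fold change was -0.39 ± 0.11 (edgeR adjusted p = 0.168). Cluster 5 had KCNMA1 at 1275 and 1322 CPM under sevoflurane, against 1582, 1511 and 1409 CPM under oxygen (log2 fold change -0.27 ± 0.11, edgeR adjusted p = 0.365). There 11.4% of the genes tested lay below oxygen without overlap. In cluster 23 the sevoflurane libraries were higher, with 2421 and 2628 CPM against 2003, 1807 and 2089 CPM, as 25% of the genes tested were (log2 fold change 0.18 ± 0.17, edgeR adjusted p = 0.672).

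In the GABAergic class KCNMA1 was at 1323 ± 71 CPM under sevoflurane and 1277 ± 42 CPM under oxygen (SD, n = 3 each). The standard error of its log2 fold change was 0.10 there, the smallest for KCNMA1 among the classes, around an estimate of -0.01 (edgeR adjusted p = 0.974). In oligodendrocyte-like cells it had 197.1, 111.8 and 413.7 CPM under sevoflurane, against 270.9, 195.8 and 204.8 CPM under oxygen. The third sevoflurane library was again the highest, and without it the log2 fold change moved to -0.59, against 0.11 ± 0.43 with it (edgeR adjusted p = 0.977).

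**Figure D4:**
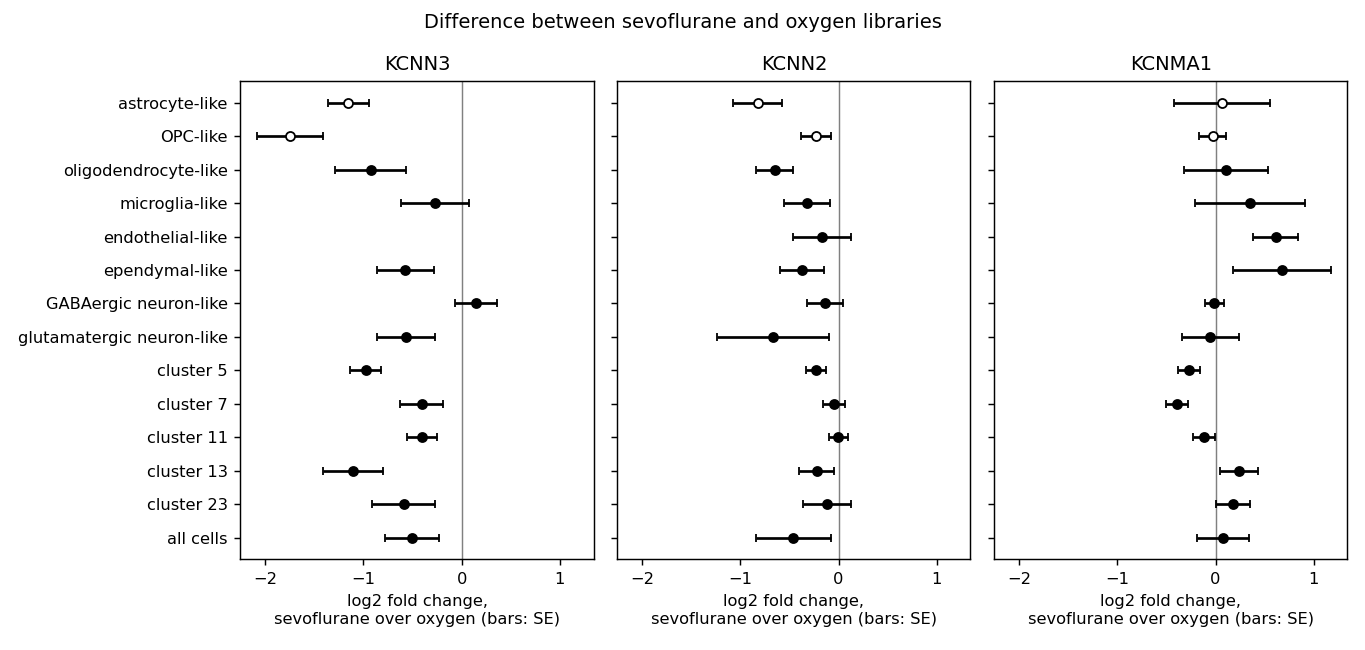
Log2 fold changes of KCNN3, KCNN2 and KCNMA1, sevoflurane over oxygen, with standard errors, in classes, glutamatergic clusters and all cells together. Open points mark the 2 classes from which the genes were chosen. KCNN3 has no point in endothelial-like cells, where it was not tested. Its other points lie below 0, from -1.75 to -0.27, except in GABAergic neuron-like cells. The clusters are parts of the glutamatergic class and all rows share the same libraries, so the rows are not independent. None of the filled points passes an adjusted p under 0.05.

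KCNN1 was low throughout, with its highest median in glutamatergic neuron-like cells. Its median was 25.3 CPM in glutamatergic neuron-like cells and 12.1 CPM in GABAergic neuron-like cells. The first was above the second in 6 of 6 libraries with no overlap of their ranges. OPC-like and astrocyte-like cells had 11.03 and 10.2 CPM, and their ranges overlapped with that of GABAergic neuron-like cells. The remaining glia and vascular cells had 5.07 CPM or less. Among neuron clusters KCNN1 was highest in cluster 11 (41.6 CPM), and the PROX1 cluster 7 had 12.2 CPM, at the level of interneurons. In glutamatergic neuron-like cells it averaged 24.5 ± 2.6 CPM under sevoflurane and 29.4 ± 6.6 CPM under oxygen (SD, n = 3 each), with a log2 fold change of -0.37 ± 0.20 (edgeR adjusted p = 0.719, and -0.45 without the third sevoflurane library).

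Genes that work with these channels were read from 6 lists, and none of their members passed the test in any of the 8 classes (337 tests with edgeR, of which 31 had an unadjusted p under 0.05 and DESeq2 called 1, ATP2B4 in glutamatergic neuron-like cells). Over all 17258 genes tested in glutamatergic neuron-like cells, DESeq2 called 85 higher and 118 lower. In astrocyte-like and OPC-like cells edgeR called 0.018% and 0.0219% of all genes tested, and 6.74% and 6.38% had an unadjusted p under 0.05. Of the BK accessory subunits, only KCNMB4, the subunit of neuronal BK channels, was measured in astrocyte-like and OPC-like cells, at 21.5 ± 6.1 and 23.7 ± 8.7 CPM under sevoflurane and 23.2 ± 12.7 and 27.8 ± 10.3 CPM under oxygen. In glutamatergic neuron-like cells KCNMB4 averaged 163.1 ± 16.6 CPM under sevoflurane and 157.2 ± 29.2 CPM under oxygen. Calmodulin is the calcium sensor of SK channels. CALM2 in astrocyte-like cells averaged 315 ± 144 CPM under sevoflurane and 321 ± 67 CPM under oxygen, and all 8 genes of the SK complex list had no call in either direction in both glial classes. Their median log2 fold change was -0.06 in astrocyte-like and -0.11 in OPC-like cells.

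Calcium sources and removal were described in the same way. In astrocyte-like cells, 14 of the 20 calcium entry channel genes were tested, 0 were called and the median log2 fold change was -0.06. CACNA1D, a voltage-gated calcium channel, averaged 784 ± 23 CPM under sevoflurane and 814 ± 115 CPM under oxygen there. Of the store release and removal genes 12 of 16 were tested with a median log2 fold change of 0.07. RYR2, a calcium release channel of the endoplasmic reticulum, averaged 1643 ± 133 CPM under sevoflurane and 2611 ± 595 CPM under oxygen, which did not pass (log2 fold change -0.67 ± 0.16, edgeR adjusted p = 0.429). The KCNT2 gene, a sodium-activated potassium channel, averaged 629 ± 40 and 588 ± 46 CPM under sevoflurane and oxygen. In OPC-like cells SLC8A1, the sodium-calcium exchanger NCX1, averaged 1075 ± 84 CPM under sevoflurane and 1226 ± 112 CPM under oxygen.

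In 9 neuron clusters there were 408 tests of these lists, of which edgeR called 1 and DESeq2 called 17, and 64 had an unadjusted p under 0.05. The DESeq2 calls included CACNB2, a subunit of voltage-gated calcium channels, in clusters 7, 11, 13, 15 and 23, and SLC8A3 in clusters 11, 13, 17 and 23. Over all genes tested, DESeq2 called 95 higher and 320 lower of 12072 in cluster 7, and 42 and 150 of 9377 in cluster 11. It called 74 and 151 of 9932 in cluster 13, and 14 and 14 of 9178 in cluster 15. In cluster 17 it called 74 and 33 of 8555, and in cluster 23 it called 129 and 267 of 10200. Besides the clusters given above, edgeR called 0% of all genes tested in cluster 15, 0.011% in cluster 16, 0.386% in cluster 17 and 0.0502% in cluster 21. An unadjusted edgeR p under 0.05 was reached by 781 of 9179, 648 of 9085, 1000 of 8555 and 929 of 9962 genes in those clusters. SLC8A3, the sodium-calcium exchanger NCX3, fell in the interneurons of cluster 17, to 67.8 ± 11.3 CPM under sevoflurane, against 134.2 ± 13.6 CPM under oxygen (SD, n = 3 each). Its log2 fold change was -1.07 ± 0.18 (edgeR adjusted p = 0.0384). The call held without the third sevoflurane library (edgeR adjusted p = 0.0331) and was lost when any other library was left out (edgeR adjusted p = 0.0508 to 0.196, with log2 fold changes of -1.20 to -0.99) and with the replicate block (edgeR adjusted p = 0.0833). In this cluster 0.0584% of the genes tested fell.

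The genes whose levels ran most like each channel were ranked over 42 points, 7 classes in 6 libraries, among 7039 genes, by Pearson's r of log2 values. The points share libraries, so r is a description. KCNN2 was most like PTPRO (r = 0.91) and SLIT2 (r = 0.90), KCNMA1 most like KCNQ3 (r = 0.91) and MYCBP2 (r = 0.91), and KCNN1 most like BRINP1 (r = 0.83). KCNN3 had weaker partners, INPP5K (r = 0.70) and RGS22 (r = 0.67). Among the channels themselves, KCNN2 and KCNMA1 were the most alike (r = 0.76) and KCNN2 and KCNN3 the least (r = 0.23).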

How the data were processed

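The deposited files hold UMI counts for each gene in each barcode of 6 libraries, as unnormalised whole numbers. They were made with CASAVA 1.8 and Cell Ranger (6.1.1 in the matrix header) and Single Cell 3' chemistry version 3.1, per the labels' protocols, the file headers and the submitters' processing notes. Neither genome build nor annotation is given in the sources used here, and no sequences are shown. Of 29320 genes, 15188 carried a symbol in the files and 1397 took one from a gene name table. The 4 channel genes and the gene lists were chosen with earlier results of these data known.

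All 46582 barcodes had at least 500 UMIs and 200 genes. Doublets were scored per library with scrublet, and 2234 were removed at the median automatic threshold of 0.191, chosen after the automatic values were seen. Scanpy 1.11.5 scaled counts to 10000 per cell and clustered the cells (Leiden, resolution 1, 15 neighbours, 30 principal components of 2000 variable genes), with the members and 4 related channel genes (8 in all) kept out. Clusters took a name where a marker list scored 0.25 or more, 3 or more of its markers appeared in 10% of cells, and the next list stayed under a ratio of 0.6, limits set after the files were read.

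Counts were summed per class and library, where each library held at least 20 cells. For ependymal-like cells and clusters 5, 7, 11 and 23 this held in 5 libraries, and they were fitted without sevoflurane replicate 3, a choice made after the clusters were seen. Genes were filtered with filterByExpr, scaled with TMM and tested with the quasi-likelihood test of edgeR 4.0.16 (R 4.3.3), with Benjamini-Hochberg adjustment over all genes tested and calls at an adjusted p under 0.05. The test was checked on simulated data. Levels in CPM are not TMM-scaled. Genes outside the 4 channels were named where they passed the test, and otherwise were up to 3 per list with the highest level. ATP2B4 and CACNB2 (called by DESeq2 alone) were named after their results were seen. Alternatives were DESeq2 1.42.0, no filter, a replicate block, another resolution (0.5), variable genes chosen with the members among the candidates, and leaving out each library.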

Additional observations from a re-analysis of the deposited data

Results flagged for a closer look

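KCNMA1 was higher under sevoflurane in some cells and lower in others, with no overlap between the groups and no call by edgeR. In endothelial-like cells all 3 sevoflurane libraries were above all oxygen libraries (log2 fold change 0.61), and so were both sevoflurane libraries of cluster 23 (0.18). Of all genes tested, 3.53% and 25% were higher in the same way there. In clusters 5 and 7 both sevoflurane libraries were below all oxygen libraries (-0.27 and -0.39), as were 11.4% and 9.83% of all genes tested. The difference between these cells was not tested.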

How the results depend on the processing

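Most of the log2 fold changes counted for the channel genes kept their direction, while the counts of changed genes often changed in size. Over 46 log2 fold changes and 453 alternative settings, 429 kept direction and side of the threshold or moved by less than the spread, 3 passed the threshold, 20 reversed and 1 moved by more than the spread (KCNN2 in OPC-like cells at Leiden resolution 0.5, -0.37). The 3 were KCNN3 in cluster 5 under DESeq2 or without a count filter (1 of the 4 channel genes called under each) and KCNN3 in cluster 13 with no filter (1 called), where the edgeR adjusted p was 9.31e-05. KCNN1 was counted only in all cells and in astrocyte-like, OPC-like, GABAergic neuron-like and glutamatergic neuron-like cells. In astrocyte-like and OPC-like cells only the spread was used, so a change of sign smaller than the spread was counted as kept. KCNN3 in astrocyte-like and OPC-like cells stayed below 0 under every setting run. These settings reuse the libraries in which KCNN3 was chosen, so nothing is read from the kept sign. Leaving out libraries in turn called 0 channel genes in every class and cluster tested.

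KCNMA1 reversed in all cells (0.08, to -0.29 without sevoflurane replicate 3 and -0.01 without oxygen replicate 3, range -0.29 to 0.27), in oligodendrocyte-like cells (0.11, to -0.11 with the replicate block, range -0.59 to 0.47 without a library), in microglia-like cells (range -0.57 to 1.21), in ependymal-like cells (0.68, to -1.28 without sevoflurane replicate 1 and 1.46 without replicate 2), in GABAergic neuron-like cells (range -0.061 to 0.037) and in glutamatergic neuron-like cells (-0.05, to 0.004 at Leiden resolution 0.5, range -0.44 to 0.17). KCNN3 reversed in microglia-like cells at resolution 0.5 (0.17) and in GABAergic neuron-like cells (range -0.10 to 0.27). KCNN2 reversed in endothelial-like cells (range -0.32 to 0.006), in GABAergic neuron-like cells (range -0.31 to 0.057), in cluster 11 (0.006 with no filter, range -0.046 to 0.029) and in cluster 23 (0.076 with the replicate block, range -0.26 to 0.085). The difference in the share of cells with KCNN3 ranged from -1.16 to 0.11 percentage points in microglia-like and from -0.24 to 0.41 in GABAergic neuron-like cells. In the classes from which the genes were chosen, leaving out a library took KCNMA1 in astrocyte-like cells from -0.80 to 0.46, KCNMA1 in OPC-like cells from -0.18 to 0.075 and KCNN1 in astrocyte-like cells from -0.43 to 0.024, across 0 in each case. Beyond the libraries named, the cause was not tested.

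edgeR called 0 genes in all cells (1929 with an unadjusted p under 0.05), 0 in endothelial-like (307) and 0 in ependymal-like cells (622), 2 each in astrocyte-like, OPC-like and oligodendrocyte-like cells, 8 in microglia-like, 12 in GABAergic neuron-like and 1 in glutamatergic neuron-like cells, and 7, 77, 1, 103 and 112 in clusters 5, 7, 11, 13 and 23. DESeq2 called 415 in all cells, 36 in astrocyte-like, 13 in OPC-like, 35 in oligodendrocyte-like, 23 in microglia-like, 1 in endothelial-like, 4 in ependymal-like, 200 in GABAergic neuron-like and 203 in glutamatergic neuron-like cells, and 151, 415, 192, 225 and 396 in clusters 5, 7, 11, 13 and 23. With no filter on low counts edgeR called 160 in astrocyte-like, 97 in OPC-like, 61 in oligodendrocyte-like, 123 in microglia-like, 261 in endothelial-like, 65 in ependymal-like and 256 in GABAergic neuron-like cells, and 642, 649, 232, 742 and 815 in the 5 clusters. At resolution 0.5 the count was 1 in OPC-like cells and 0 in microglia-like and both neuron classes. Leaving out a library gave 0 in all cells, endothelial-like and glutamatergic neuron-like cells, 0 to 4 in astrocyte-like and in ependymal-like, 0 to 10 in OPC-like, 0 to 3 in oligodendrocyte-like, 1 to 14 in microglia-like and 0 to 19 in GABAergic neuron-like cells, and 1 to 81, 7 to 247, 0 to 83, 0 to 235 and 0 to 568 in the 5 clusters. Same-numbered libraries correlated at -0.32 to 0.07 in their deviations from the group means. Differently numbered libraries were not compared, so these values cannot decide whether the replicate numbers pair the libraries. With the replicate block the count was 0 in astrocyte-like, oligodendrocyte-like and both neuron classes and in clusters 5 and 11, 1 in microglia-like cells, 98 in cluster 7, 31 in cluster 13 and 52 in cluster 23. In cluster 17, where the settings were added after the call of SLC8A3 was seen, edgeR called 33 genes, DESeq2 107, edgeR with no filter 526 and with the replicate block 13, and leaving out a library gave 0 to 91. SLC8A3 there kept its direction under every setting run.

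KCNN3 rested on 415 UMIs in astrocyte-like and 214 in OPC-like cells, and in endothelial-like cells on 21, too few to be tested.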

Other observations

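KCNMA1 in microglia-like cells fell into separate levels that did not follow the groups. It had 1489, 386 and 412 CPM in the sevoflurane libraries and 363, 1153 and 315 CPM in the oxygen libraries, from 1198, 174, 138, 167, 692 and 209 UMIs. The pan-neuronal markers of these cells summed to 1179, 1003 and 660 CPM under sevoflurane and 1100, 836 and 918 CPM under oxygen, and their part in the KCNMA1 values was not tested. The log2 fold change of KCNMA1 there was 0.35 ± 0.56 (edgeR adjusted p = 0.949). It was -0.57 without the first sevoflurane library and 1.21 without the second oxygen library. The same 2 libraries held the largest shares of cluster 5 neurons, 10.0% and 11.2% of their cells, against 0.0897% to 4.81% in the others, and the part of that was not tested either. In ependymal-like cells, too, the first sevoflurane library was high in KCNMA1, with 432.9 CPM against 63.5 CPM in the second sevoflurane library and 159.4, 136.1 and 167.4 CPM in the oxygen libraries.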
